A study of Helianthus annuus with 12 samples.

Results

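Of the 90 predicted microRNAs counted in sunflower (Helianthus annuus) seedlings, 40 had a higher mean level in control leaves than in control roots, and these leaf-rich predicted microRNAs are described here. The table held 15903 entries in all. A member is an entry of the class of predicted microRNAs whose mean level, in counts per 1000000 of the library's column total (CPM), over the 3 control leaf libraries was above that over the 3 control root libraries. novel_mir21, novel_mir25 and novel_mir12 were set aside by name, and none of them met that condition. The members were thus chosen by their values in the control libraries, and the levels in control leaves and roots are a description without a test. The rule did not use the PEG libraries.

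Seedlings of R5, a cultivar the submitters call tolerant to drought, had been raised in soil in a greenhouse to the 4-leaf stage, rinsed, and set in culture bottles. For 24 h the bottles held either distilled water (control) or water with 15% PEG 6000, a polymer that draws water away from the roots. Leaves and roots were collected from both treatments at the same time, which gave 4 groups of 3 libraries each, here called control and PEG leaves and control and PEG roots. All groups shared the cultivar, the transfer from soil to liquid and the bottle. The labels do not say whether the replicates were separate plants, so the p-values measure the spread between these libraries, which may be technical.

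MicroRNAs of plants are cut by a Dicer-like enzyme from the arm of a transcript that folds back on itself as a hairpin. The short mature strand is loaded into an Argonaute protein, usually ARGONAUTE1, and guides it to transcripts with a closely matching site, which are cleaved or less translated. A predicted microRNA is a locus where the reads and the fold of the flanking genome look like such a hairpin, without a match to a catalogued family. Such loci are often young and particular to a lineage, their targets are mostly unknown, and a share of predictions may be other small RNAs. No target or function is given for any member in the table, and the mature sequences were not analysed here, so members are identified by their locus.

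Column totals ranged from 20829490 to 33426228 reads, and were lower in root than in leaf libraries. Predicted microRNAs had no count from 1 to 9 in any library, so a listed 0 can stand for up to 9 reads, which is 0.269 to 0.432 CPM depending on the library. No small RNA can be named with certainty as a marker of leaf or root, so the organ labels were not checked by markers. The 50 other predicted microRNAs are those that did not meet the rule, so their higher control root level follows from the choice and is no check of the labels. Their summed level was 4002 to 7316 CPM in control leaves and 7910 to 10812 CPM in PEG leaves, against 84454 to 116811 CPM in control roots and 61225 to 72236 CPM in PEG roots. Control root replicate 3 stood apart, with the lowest value of its group for 33 of the 40 members. It was also lowest for 90 of the 129 tested known microRNA names and for 23 of the 50 other predicted microRNAs. Its TMM scaling factor was 0.292, against 0.774 and 0.820 in the other control roots. PEG leaf replicate 3 stood apart as well, in a few members described last.

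Each locus is given as a name, strand, start and end on the sequences of the file, whose build the sources used here do not name. The 40 loci lay on 17 sequences, 36 on the plus and 4 on the minus strand, and spanned 85 to 1278 bases with a median of 174.5. The other predicted microRNAs spanned 73 to 475 bases, with 40 of 50 on the plus strand. Whether a locus lies in a gene, an exon or an intron was not analysed here. The most abundant member, novel_mir40, was placed on CM007899.1 at 21754729 to 21754818, plus strand, and novel_mir23 on CM007893.1 at 23138607 to 23138991, plus strand.

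The 1 close group of members was novel_mir63, novel_mir64 and novel_mir65, all on the plus strand of CM007903.1. They lay at 69100013 to 69100103, 69177235 to 69177431 and 69255966 to 69256050, with gaps of 77132 and 78535 bases, and no other predicted microRNA lay between them. No other pair of members lay as close to each other. In control leaves novel_mir64 stood at 1795, 1097 and 867 CPM, novel_mir65 at 457, 448 and 521 CPM, and novel_mir63 at 444, 305 and 203 CPM. novel_mir63 and novel_mir64 had the same order of the 3 control leaf libraries, which novel_mir65 did not share. Over the 6 leaf libraries the rank correlation (rho) was 0.886 for novel_mir63 with novel_mir64. It was 0.371 for novel_mir64 with novel_mir65, and 0.143 for novel_mir63 with novel_mir65. Over the 6 root libraries it was 0.771, 0.943 and 0.829 in that order, so novel_mir65 was not set apart there. Near-identical copies could share reads, which cannot be resolved without the mature sequences.

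Leaf-rich predicted microRNAs held 20117, 19203 and 23142 CPM in control leaves. This was 10.6% to 12.4% of the reads in named small RNAs, and 76.0% to 82.8% of the reads in predicted microRNAs. In control roots their sum was 6100, 6700 and 2353 CPM, which was 1.97% to 7.35% of the reads in predicted microRNAs. All 40 were above 0 in all 6 leaf libraries and 30 were above 0 in all 6 root libraries. All 40 had at least 10 counts in at least 3 libraries and were tested.

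**Figure D1:**
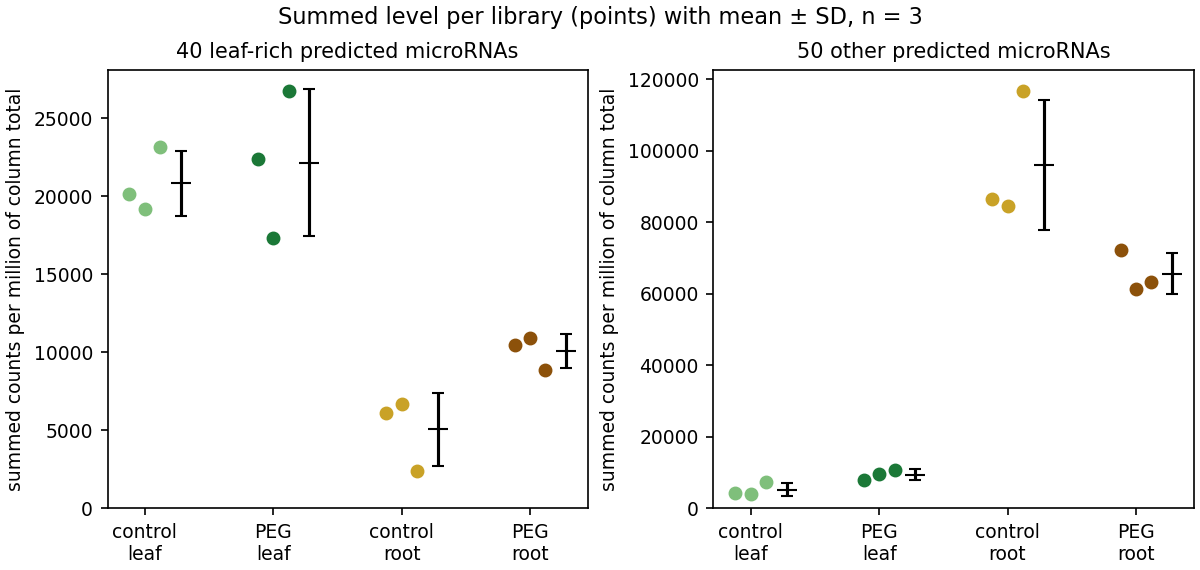
Summed level of the leaf-rich predicted microRNAs (left) and of the other predicted microRNAs (right), in CPM of the column total, by group; points are libraries and the bar beside them is mean ± SD (n = 3). The leaf-rich sum is lower in every root than in every leaf library and is 8850 to 10884 CPM in PEG roots against 2353 to 6700 CPM in control roots, while the other predicted microRNAs are higher in every root library.

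The levels in control leaves covered more than 3 orders of magnitude, from 4160 CPM for novel_mir40 to 1.99 CPM for novel_mir55 as group means. Of the members, 7 were above 1000 CPM, 14 between 100 and 1000 CPM, 16 between 10 and 100 CPM and 3 at or below 10 CPM. These are reads per entry, not divided by length. novel_mir40 and novel_mir23 alone made up 32.04% to 44.4% of the members' reads in control leaves and 17.6% to 18.7% in control roots.

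novel_mir40 stood at 3785, 4064 and 4631 CPM in control leaves and at 360, 871 and 313 CPM in control roots. novel_mir23 stood at 2661, 3019 and 5654 CPM in control leaves and at 711, 381 and 123 CPM in control roots. The third in abundance, novel_mir75, stood at 2176, 2022 and 2385 CPM in control leaves and at 1528, 2155 and 683 CPM in control roots, so its control organs overlapped. Among the members it had the highest level in all 3 control roots.

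The next in abundance were novel_mir82 with a control leaf mean of 1328 CPM ± 234 (SD, n = 3), novel_mir45 with 1302 ± 294, novel_mir64 with 1253 ± 483 and novel_mir62 with 1112 ± 110. Neighbours among these 4 differed by less than their spread. In control roots novel_mir82 stood at 175, 205 and 46.0 CPM, novel_mir45 at 114, 302 and 41.5 CPM and novel_mir64 at 158.7, 138 and 77.4 CPM, all well below every control leaf library. novel_mir62 differed from them, at 1110.4, 1222 and 1002 CPM in control leaves and at 951, 693 and 265 CPM in control roots, with every control root below every control leaf and control root replicate 1 close to the lowest leaf. novel_mir50 followed with 698 ± 114 CPM, novel_mir33 with 628 ± 59.7 CPM and novel_mir3 with 549 ± 47.0 CPM. In control roots novel_mir50 stood at 319.1, 252 and 150.4 CPM, novel_mir33 at 176, 179 and 68.8 CPM and novel_mir3 at 525, 591 and 178 CPM. The control organs overlapped for novel_mir3 and not for the other two.

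The members between 100 and 1000 CPM in control leaves were, after these 3, novel_mir29, novel_mir65, novel_mir47, novel_mir43, novel_mir63, novel_mir76, novel_mir60, novel_mir80, novel_mir48, novel_mir4 and novel_mir27. Those between 10 and 100 CPM were novel_mir19, novel_mir71, novel_mir78, novel_mir1, novel_mir74, novel_mir61, novel_mir5, novel_mir8, novel_mir28, novel_mir77, novel_mir37, novel_mir18, novel_mir57, novel_mir30, novel_mir22 and novel_mir88. The 3 lowest were novel_mir26, novel_mir72 and novel_mir55. The spread between libraries was wider in control roots, with a median coefficient of variation over members of 62.9% against 21.0% in control leaves, 24.3% in PEG leaves and 31.3% in PEG roots.

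For 36 of the 40 members every control leaf library lay above every control root library, a count that the rule itself favours. The share of all tested small RNAs with this pattern in controls was not computed, so the count is a description only. The ratio of the control leaf to the control root mean was over 10 for 9 members and under 2 for 6, among those with a root mean above 0. It was 50.7 for novel_mir43, 47.9 for novel_mir29 and 47.7 for novel_mir78. novel_mir43 stood at 386, 324 and 282 CPM in control leaves and at 9.46, 5.94 and 4.19 CPM in control roots. novel_mir29 stood at 553, 507 and 422 CPM in control leaves and at 17.0, 10.9 and 2.99 CPM in control roots. Both were far higher in each control leaf than in any control root, where they reached at most 17.0 CPM. Another 4 members, novel_mir8, novel_mir30, novel_mir26 and novel_mir72, were listed at 0 in all 3 control roots. With 9 counts per library as the floor, novel_mir8 was at least 72.2-fold higher in control leaves, novel_mir30 at least 34.0-fold, novel_mir26 at least 11.01-fold and novel_mir72 at least 10.4-fold. In control leaves novel_mir26 stood at 4.05, 0.809 and 8.78 CPM and novel_mir72 at 3.61, 3.92 and 5.34 CPM, so these bounds rest on low levels. Nearest to the threshold inside it were novel_mir77, at 23.1 ± 23.0 CPM in control leaves and 22.0 ± 23.0 CPM in control roots, and novel_mir3, at 549 ± 47.0 and 431 ± 222 CPM. Nearest outside it were novel_mir35, at 81.8 ± 24.5 and 108 ± 79.9 CPM, and novel_mir56, at 19.6 ± 11.2 and 29.0 ± 17.3 CPM. novel_mir77, at 49.5, 12.5 and 7.39 CPM in control leaves, no longer met the rule without control leaf replicate 1, without control root replicate 2 or without control root replicate 3, nor with levels taken over named small RNAs or over microRNAs. novel_mir3 no longer met it without control root replicate 3.

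**Figure D2:**
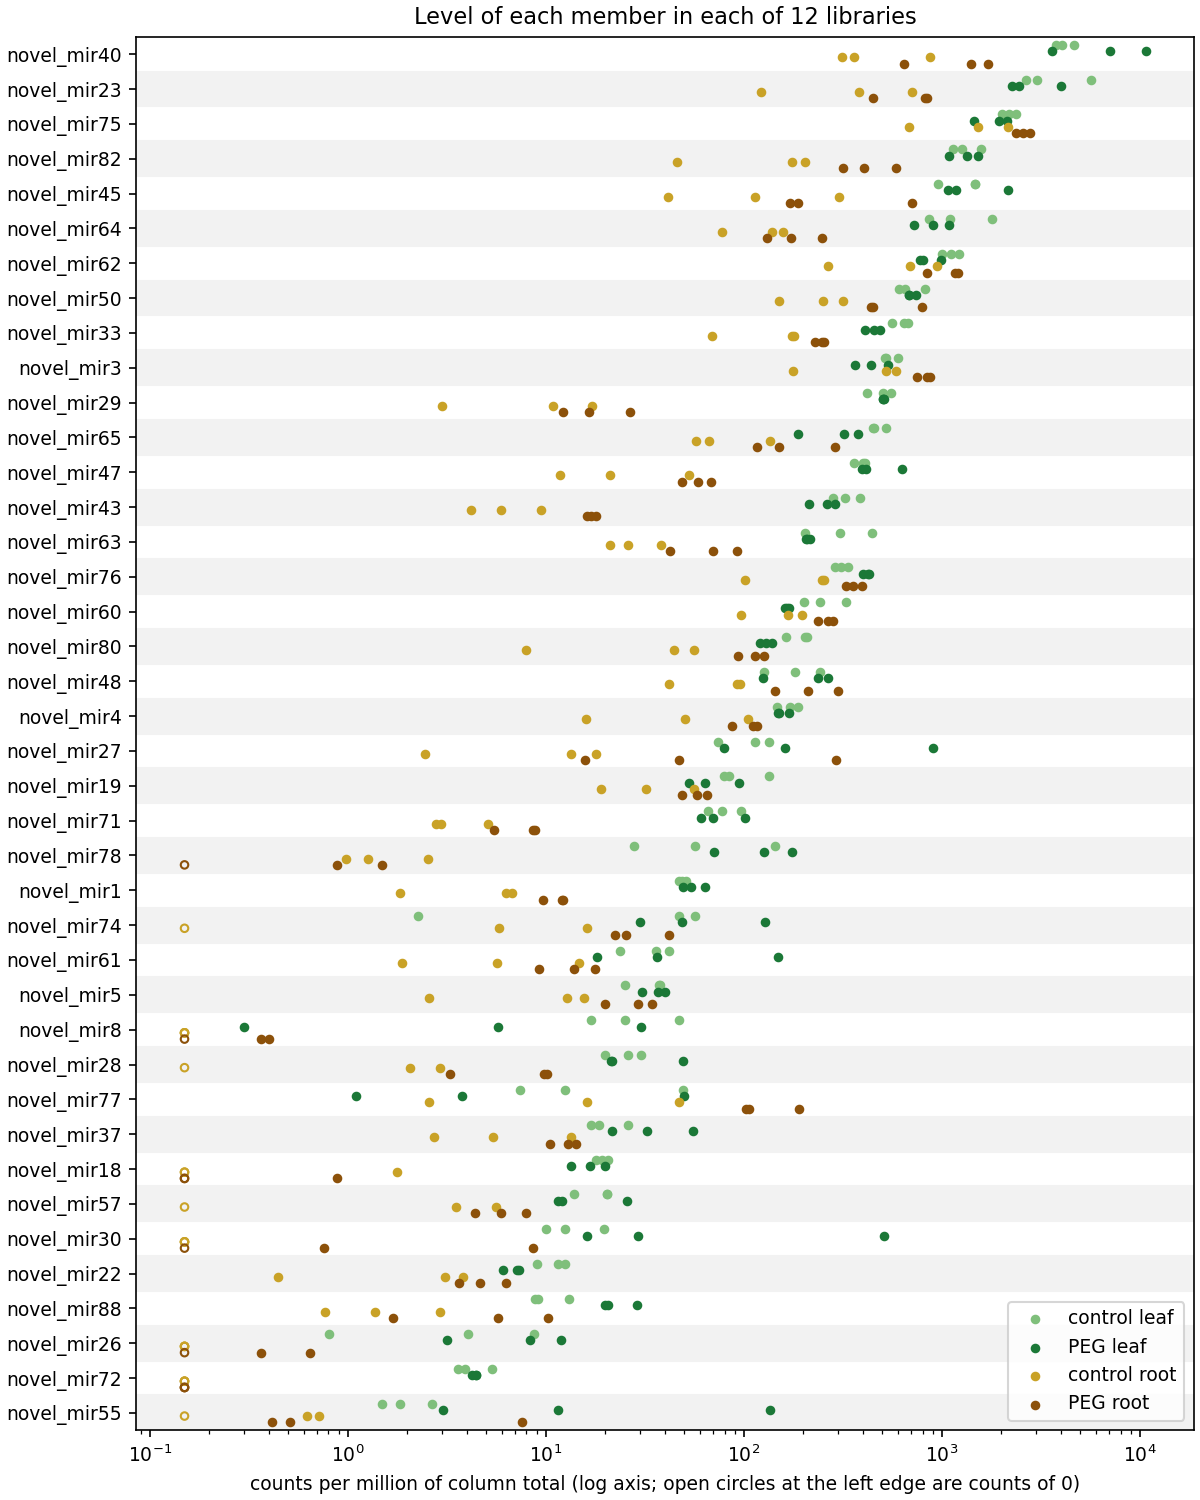
Level of each of the 40 members in each of 12 libraries, in CPM of the column total on a log axis, ordered by control leaf mean; colours are the 4 groups and open circles are counts of 0. Leaf points lie to the right of root points for most members, PEG root points lie mostly to the right of control root points, and novel_mir27, novel_mir30 and novel_mir55 each have 1 PEG leaf library far to the right.

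The comparison of roots with leaves under PEG asks whether the difference between organs held in libraries that had no part in choosing the members. In edgeR's quasi-likelihood test with TMM scaling, 11 of 40 members were lower in PEG roots than in PEG leaves and 4 were higher at an adjusted p under 0.05. Over all 10604 small RNAs tested, 12.3% were lower and 4.27% higher, 16.5% in all. With column totals 12 members were lower and 0 higher, against 15.7% of all tested small RNAs called in either direction. The members' median log2 difference of roots minus leaves was -1.21, and that of all tested small RNAs was -1.15. The gap between these medians depended on the setting. With at least 50 counts in 3 libraries they were -1.09 and -0.27, and with listed zeros set to 9 they were -1.41 and -0.02. With column totals they were -1.65 and -1.62, and with the replicate number as a block -1.32 and -1.63. For the 50 other predicted microRNAs the median was 3.79 in the main fit, with 40 higher and 0 lower. Of the names of known conserved families, 114 of 141 were tested, with 24 lower and 12 higher.

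The members with the smallest adjusted p were novel_mir43 and novel_mir29. novel_mir43 stood at 213, 262 and 290 CPM in PEG leaves and at 16.8, 16.2 and 17.9 CPM in PEG roots (log2 difference -3.45, SE 0.29, adjusted p = 0.000301). novel_mir29 stood at 507, 503 and 513 CPM in PEG leaves and at 12.3, 16.5 and 26.8 CPM in PEG roots (-4.31, SE 0.41, adjusted p = 0.000516). In both, each root library was far below each leaf library, and the 3 PEG leaf values of novel_mir29 were close to each other.

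novel_mir78 stood at 127, 175 and 70.7 CPM in PEG leaves and at 1.48, 0 and 0.881 CPM in PEG roots (log2 difference -6.80, SE 1.33, adjusted p = 0.00556). Its root libraries were near the floor, so the size of the difference is not well measured. novel_mir72 stood at 4.46, 4.27 and 4.46 CPM in PEG leaves and was listed at 0 in all 3 PEG roots, as in all 3 control roots. With 9 counts per library as the floor it was at least 12.4-fold higher in PEG leaves (adjusted p = 0.00149), and it was the 1 member at 0 in every root library. It reached the minimum of 10 counts in 3 libraries through leaf libraries alone, which favours its call. The same was true of 4 members that were not called, novel_mir8, novel_mir18, novel_mir26 and novel_mir30, which had fewer than 3 root libraries at that minimum. The fitted differences of novel_mir18 (-5.33, SE 1.88, adjusted p = 0.0850) and novel_mir8 (-5.01, SE 1.65, adjusted p = 0.0816) did not pass, nor did that of novel_mir30 (-5.51, SE 2.10, adjusted p = 0.109). All 3 were listed at 0 in at least 1 PEG root library.

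Among the abundant members, novel_mir40 stood at 7042, 3606 and 10717 CPM in PEG leaves and at 1409, 1706 and 648 CPM in PEG roots (-2.06, SE 0.49, adjusted p = 0.0138). novel_mir23 stood at 3981, 2254 and 2470 CPM in PEG leaves and at 845, 828 and 452 CPM in PEG roots (-1.56, SE 0.44, adjusted p = 0.0342). novel_mir64 stood at 903, 1083 and 728 CPM in PEG leaves and at 174, 132 and 249 CPM in PEG roots (-1.82, SE 0.34, adjusted p = 0.00518). All leaf libraries of these 3 were above all root libraries.

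novel_mir47 stood at 396.7, 414 and 629.8 CPM in PEG leaves and at 48.6, 68.4 and 58.9 CPM in PEG roots (-2.58, SE 0.38, adjusted p = 0.00300). novel_mir71 stood at 60.7, 70.0 and 102 CPM in PEG leaves and at 8.78, 5.50 and 8.59 CPM in PEG roots (-2.88, SE 0.41, adjusted p = 0.00289). novel_mir1 stood at 54.3, 63.7 and 49.1 CPM in PEG leaves and at 12.2, 9.68 and 12.2 CPM in PEG roots (-1.82, SE 0.28, adjusted p = 0.00347). In each of the 3 the PEG root libraries were close together and far below the leaves. novel_mir82 stood at 1344, 1087 and 1523 CPM in PEG leaves and at 318, 585 and 404 CPM in PEG roots (-1.14, SE 0.31, adjusted p = 0.0297). Of 16 other settings, novel_mir82 passed in 7, novel_mir23 in 8, novel_mir40 in 15 and the other 8 lower members in all 16. For the 10 called members that were above 0 in some PEG root, the mean in PEG leaves was 3.03 to 158 times the mean in PEG roots.

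The 4 members higher in PEG roots were novel_mir3, novel_mir60, novel_mir75 and novel_mir62. novel_mir3 stood at 534, 441 and 365 CPM in PEG leaves and at 754, 844 and 868 CPM in PEG roots (log2 difference 1.35, SE 0.20, adjusted p = 0.00301). novel_mir60 stood at 161.7, 169.7 and 165.8 CPM in PEG leaves and at 267, 282 and 238 CPM in PEG roots (1.13, SE 0.23, adjusted p = 0.00596). novel_mir75 stood at 2146, 1952 and 1460 CPM in PEG leaves and at 2782, 2568 and 2373 CPM in PEG roots (0.95, SE 0.20, adjusted p = 0.00758). For these 3 each root library was above each leaf library. novel_mir62 stood at 801, 991 and 781 CPM in PEG leaves and at 1168, 840 and 1214 CPM in PEG roots (0.80, SE 0.23, adjusted p = 0.0351), and its libraries overlapped. The calls of all 4 ended when counts were scaled by column totals, with the same direction and log2 differences of 0.88, 0.66, 0.47 and 0.32 in that order. They ended too with library totals of named small RNAs and with zeros set to 9. Of 16 other settings, novel_mir62 passed in 3. Each of the 4 had a control leaf to control root ratio under 2 by CPM. With TMM scaling, as in the test, none of the 4 had a higher mean in control leaves than in control roots, so on that scale they were not leaf-rich in the controls either. The same was true of novel_mir48, novel_mir76 and novel_mir77.

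novel_mir77 stood at 1.10, 3.78 and 49.7 CPM in PEG leaves and at 191, 103 and 106 CPM in PEG roots. Each root library was above each leaf library, and the fitted log2 difference of 3.29 (SE 1.36, adjusted p = 0.126) did not pass. Without PEG leaf replicate 3 it was 6.26 and passed. Among the 10 most abundant members, novel_mir45 (-1.61, SE 0.63, adjusted p = 0.104), novel_mir33 (-0.42, SE 0.17, adjusted p = 0.123) and novel_mir50 (0.15, SE 0.29, adjusted p = 0.788) did not pass. novel_mir45 stood at 1074, 1177 and 2149.9 CPM in PEG leaves and at 170.9, 709 and 187 CPM in PEG roots, and without PEG root replicate 2 its difference was -2.56 and passed. novel_mir33 stood at 491, 455 and 409 CPM in PEG leaves and at 229, 255 and 248 CPM in PEG roots. novel_mir50 stood at 686, 684 and 746 CPM in PEG leaves and at 799, 449 and 442 CPM in PEG roots, with overlap, and its sign turned with column totals, to -0.32.

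By CPM, 34 of the 40 members had a higher mean in PEG leaves than in PEG roots and 6 did not. For 24 of 40 each PEG root library was below each PEG leaf library, against 35.0% of all tested small RNAs, and for 4 each was above, against 8.25%. Of the 24, 11 passed the test. Over the 36 members with both root means above 0, the leaf to root ratio had a median of 5.39 in controls and 2.96 under PEG, and was smaller under PEG for 31. The first median comes from the values that chose the members, so a lower second one is favoured by the choice. Members kept much of their order, with r = 0.879 and rho = 0.865 across members between the log2 ratios of control and PEG libraries. This is a description across members that share libraries within each treatment.

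**Figure D3:**
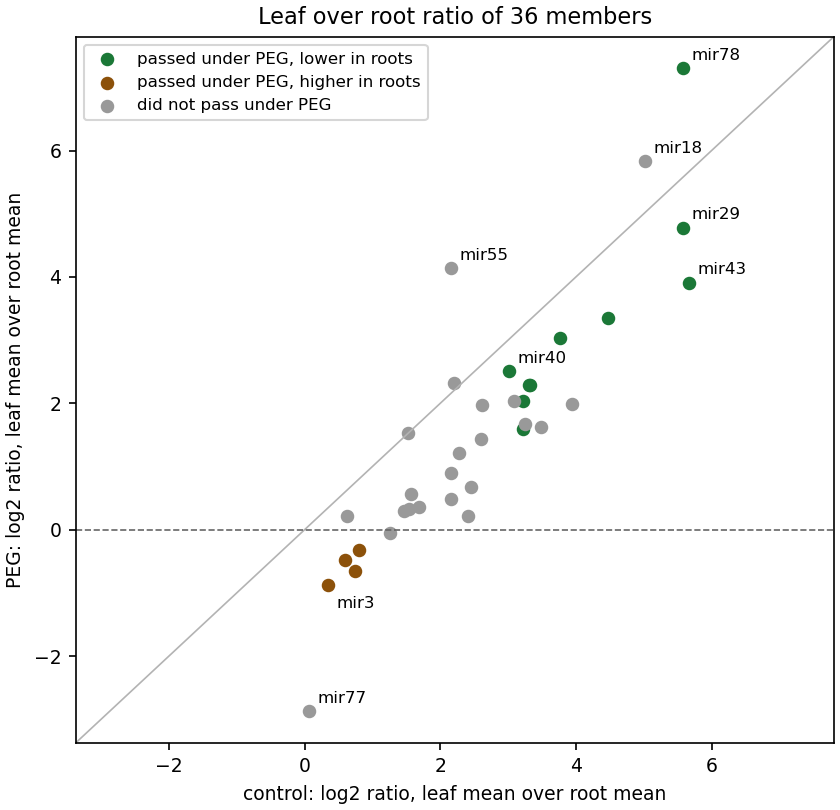
Log2 ratio of the leaf mean to the root mean, in CPM of the column total, in control libraries (horizontal axis) and PEG libraries (vertical axis), for the 36 members with both root means above 0; colours give the call under PEG, the grey line marks equal ratios and the dashed line a PEG ratio of 1. Most points lie under the grey line, novel_mir78, novel_mir29 and novel_mir43 stay far to the leaf side, and novel_mir77, novel_mir3 and 4 others fall below the dashed line.

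The root comparison concerns the organ standing in PEG. By CPM the members' sum went from 6100, 6700 and 2353 CPM in control roots to 10467, 10884 and 8850 CPM in PEG roots, and each PEG root library was above each control root library. The log2 ratio of the mean sums was 0.995, and 0.65 without control root replicate 3. The sum of known microRNAs went from 5499 to 18499 CPM in control roots to 19171 to 22916 CPM in PEG roots, while the other predicted microRNAs went from 84454 to 116811 CPM to 61225 to 72236 CPM. The rule split the predicted microRNAs by their control levels, which favours a higher sum of the members and a lower sum of the others in PEG roots. The part of these shifts in the members' values was not tested. In such tissue samples, a change in the number of cells of a type and in RNA per cell cannot be told apart.

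No member passed the test in roots. In edgeR 0 of 40 were called (smallest adjusted p = 0.181), with 8 at an unadjusted p under 0.05, against 11.8% of all tested small RNAs. Of all tested small RNAs 2.17% were called, 2.10% higher and 0.0660% lower. Of the conserved names tested, 0 of 114 were called. DESeq2 called 1 of the 40, against 407 of all tested small RNAs (3.84%). It was novel_mir30, which was listed at 0 in all control roots and in 1 PEG root library. The rule chose members for a low control root mean, which favours higher values under PEG. The median log2 change of the 40 members was 0.50 with TMM scaling and 1.09 with column totals, and that of all tested small RNAs was 0.00 and 0.45. Without the 4 members at 0 in all control roots, the members' median was 0.46 and 1.06. The gap to all tested small RNAs depended on the entries tested. With the 6 root libraries alone and TMM scaling, 35 members and 4541 small RNAs in all reached the count minimum. There the medians were 0.57 for the members and 0.56 for all tested, with 0 members and 6.25% of all called. With the replicate number as a block the medians were 0.49 and 0.30.

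By CPM, 17 of 40 members had each PEG root library above each control root library, against 13.5% of all tested small RNAs, and 0 had each below, against 1.14%. Without control root replicate 3 the count was 17, against 13.9%. Both background shares are lowered by entries with few root counts. With the 6 root libraries alone, 35 of the 40 members but 4541 of the 10604 small RNAs reached the count minimum. An entry with no listed reads in a PEG root library cannot be counted as higher. The share among those 4541 was not computed, so the size of the members' excess is not known. novel_mir82 stood at 175, 205 and 46.0 CPM in control roots and at 318, 585 and 404 CPM in PEG roots (log2 change 1.06, adjusted p = 0.181). novel_mir80 stood at 44.7, 55.9 and 7.93 CPM in control roots and at 93.2, 114 and 126 CPM in PEG roots (1.13, adjusted p = 0.181). In both members control root replicate 3 was the lowest library by far.

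novel_mir77 stood at 47.4, 16.1 and 2.59 CPM in control roots and at 191, 103 and 106 CPM in PEG roots (2.18, adjusted p = 0.534). novel_mir28 stood at 2.06, 2.93 and 0 CPM in control roots and at 10.1, 9.81 and 3.30 CPM in PEG roots (1.84, adjusted p = 0.492). novel_mir74 stood at 16.1, 0 and 5.84 CPM in control roots and at 41.7, 25.5 and 22.3 CPM in PEG roots (1.24, adjusted p = 1). These 3 did not overlap between treatments, and their control roots spread over a wide range. The other 12 without overlap were novel_mir75, novel_mir50, novel_mir33, novel_mir3, novel_mir43, novel_mir63, novel_mir76, novel_mir60, novel_mir48, novel_mir71, novel_mir1 and novel_mir5.

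The most abundant member, novel_mir40, overlapped between treatments in roots, with a PEG to control ratio of means of 2.44, as did novel_mir23 with a ratio of 1.75. novel_mir78 and novel_mir18 were the members above 0 in control roots with a lower mean under PEG, with ratios of 0.494 and 0.497, both from values near the floor. The leaf-dominated novel_mir43 stood at 9.46, 5.94 and 4.19 CPM in control roots and at 16.8, 16.2 and 17.9 CPM in PEG roots.

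In leaves the comparison asks for a change above ground. The members' sum was 22409, 17308 and 26720 CPM in PEG leaves, which overlapped control leaves. The share of the members in predicted microRNA reads was 64.5% to 73.9% in PEG leaves and 76.0% to 82.8% in control leaves, without overlap, while the sum of the other predicted microRNAs was higher in each PEG leaf library than in any control leaf. The rule split the predicted microRNAs by their control levels, which favours a lower share of the members and a higher sum of the others in PEG leaves. In edgeR 0 of 40 members were called (smallest adjusted p = 0.703), with 2 at an unadjusted p under 0.05, and of all tested small RNAs 0 were called (0%), with 382 (3.60%) at an unadjusted p under 0.05. DESeq2 called 0 of the 40 and 28 of all tested small RNAs (0.264%). Of the conserved names tested, 0 of 114 were called. The median log2 change was 0.13 for the members and 0.03 for all tested small RNAs, and 20 of the 40 had a higher mean CPM under PEG.

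By CPM, 3 members had each PEG leaf library above each control leaf library, against 4.15% of all tested small RNAs, and 6 had each below, against 7.81%. novel_mir76 stood at 311, 337 and 289 CPM in control leaves and at 399.2, 426 and 431 CPM in PEG leaves (log2 change 0.56, adjusted p = 0.703). novel_mir88 stood at 9.15, 8.84 and 13.1 CPM in control leaves and at 20.01, 20.6 and 29.0 CPM in PEG leaves (1.30, adjusted p = 1). novel_mir55 stood at 1.49, 1.84 and 2.65 CPM in control leaves and at 3.05, 11.5 and 135 CPM in PEG leaves (4.82, adjusted p = 0.738). Its size rests on PEG leaf replicate 3, without which the log2 change was 1.97.

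The 6 members with every PEG leaf library below the controls were novel_mir62, novel_mir33, novel_mir65, novel_mir60, novel_mir80 and novel_mir22. novel_mir65 stood at 457, 448 and 521 CPM in control leaves and at 380, 321 and 189 CPM in PEG leaves (log2 change -0.56, adjusted p = 1). novel_mir22 stood at 11.6, 12.5 and 9.05 CPM in control leaves and at 7.35, 7.15 and 6.07 CPM in PEG leaves (-0.55, adjusted p = 1). The rule chose members for a high control leaf mean, which favours lower values under PEG. In the novel_mir63 to novel_mir65 group, the PEG to control ratios of leaf means were 0.661, 0.722 and 0.623, and those of root means were 2.40, 1.48 and 2.15, none of them called.

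**Figure D4:**
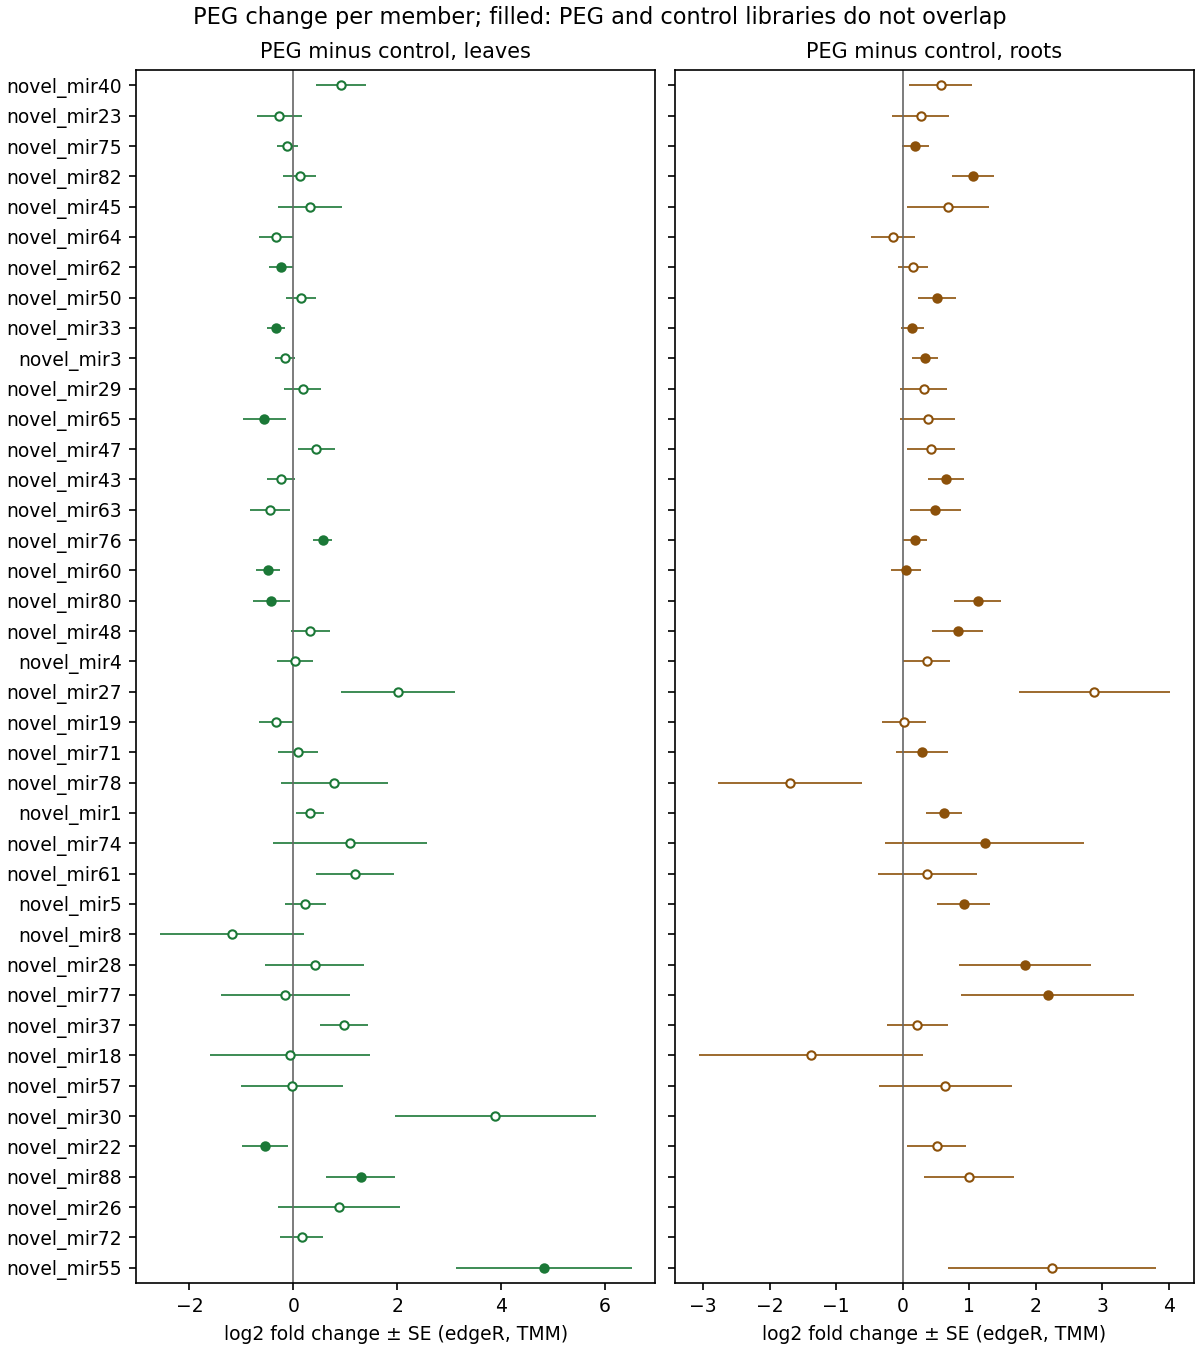
Log2 change from control to PEG in leaves (left) and roots (right) for each member, with its standard error, from edgeR with TMM scaling; filled points mark members whose PEG and control libraries do not overlap in CPM, and the 4 members at 0 in all control roots have no point on the right. The points scatter about 0 in leaves and lie mostly above 0 in roots, and no member passed the threshold in either organ.

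A few members were high in 1 library of a group. In PEG leaf replicate 3, 5 of 40 members exceeded 3 times both other PEG leaf libraries, against 4 of the 50 other predicted microRNAs and 7 of 129 tested known names. These members were singled out after their values were seen. novel_mir30 stood at 16.1, 29.3 and 511 CPM in PEG leaves, against 12.5, 9.99 and 19.6 CPM in control leaves. novel_mir27 stood at 79.2, 161 and 899 CPM in PEG leaves, against 114, 134 and 73.9 CPM in control leaves. novel_mir61 stood at 18.2, 36.4 and 150 CPM in PEG leaves, and novel_mir55 and novel_mir77 have been given above. In control leaves novel_mir61 stood at 36.1, 42.0 and 23.8 CPM.

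In roots, novel_mir27 stood at 47.2, 294 and 15.9 CPM, novel_mir30 at 0.762, 8.61 and 0 CPM and novel_mir45 at 170.9, 709 and 187 CPM in PEG libraries. All 3 were highest in PEG root replicate 2, by more than 3 times. This held for 0 of the 50 other predicted microRNAs and 12 of 129 tested known names. In PEG root replicate 1 it held for 2 of 40 members, novel_mir18 and novel_mir55, 2 of the 50 others and 6 of the 129 known names. In PEG leaves novel_mir8 was low in replicate 3, at 30.3, 5.76 and 0.299 CPM, the last being 10 reads, against 16.9, 47.2 and 25.3 CPM in control leaves.

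novel_mir55 lay on the plus strand of CM007901.1 at 151958252 to 151958437. novel_mir56, which was near the threshold of the rule but outside it, lay at 152230715 to 152231141 on the same strand, 272278 bases away. novel_mir56 stood at 14.3, 68.8 and 860 CPM in PEG leaves and at 426, 31.3 and 25.4 CPM in PEG roots. novel_mir55 stood at 3.05, 11.5 and 135 CPM in PEG leaves and at 7.58, 0.414 and 0.514 CPM in PEG roots. Both were highest in PEG leaf replicate 3 among leaves and in PEG root replicate 1 among roots. Over all 12 libraries the rank correlation (rho) was 0.413, and r of log2 CPM was 0.784. In control leaves their orders differed, with novel_mir55 at 1.49, 1.84 and 2.65 CPM and novel_mir56 at 9.59, 31.7 and 17.5 CPM. This pair was picked out after the values were seen.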

How the data were processed

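The authors deposited raw counts of reads per small RNA entry and the same values in TPM, per the file headers. The deposited TPM values equalled counts per 1000000 of the column total (CPM), not divided by length, in 100% of cells within 0.0051 plus 0.01% of the value, with 0.001 written for a count of 0. TPM entered no test. Bowtie and Bowtie2 2.2.9 are listed, with no role stated, per the submitters' processing notes. No genome build and no tool for predicting microRNAs is named in the sources used here. The 3 entries that name no feature (exon, intron, intergenic), 79.7% to 86.0% of a library, entered the column total but no test.

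The count models were fitted with edgeR 4.0.16 under R 4.3.3 (TMM, glmQLFit, glmQLFTest, 1 mean per group, 12 libraries). The 10604 entries that reached 10 counts in 3 or more libraries entered, with Benjamini-Hochberg adjustment over all of them, and were called at an adjusted p under 0.05. Tests were run on simulated data first. PEG was compared with control within each organ, and roots with leaves under PEG. The difference of the PEG effects was not tested, since it contains the contrast that chose the members. Alternatives were other scalings, count filters, DESeq2 1.42.0, microRNAs alone, zeros set to 9, a replicate block, 6 libraries alone, and each library left out.

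Named members were the 10 most abundant in control leaves, those called in leaves or roots (none), in each organ up to 5 with the largest change without overlap between PEG and control, the 5 largest and 5 smallest differences between organs under PEG, and those nearest the threshold; members called under PEG, in the 1 close locus group or high in 1 library were added after their values were seen. The members and lists were chosen with earlier results of these data known. Depth limits values near 9 counts per library, and intervals from reads without molecular identifiers would cover counting error only.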

Additional observations from a re-analysis of the deposited data

Results flagged for a closer look

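3 of 40 members (7.50%) had every PEG leaf library below every control leaf library and every PEG root library above every control root library in CPM, counts per 1000000 of the column total, against 133 of the 10604 small RNAs tested (1.25%). The ratio of the PEG to the control mean was 0.719 in leaves and 1.73 in roots for novel_mir33, 0.645 and 1.70 for novel_mir60, and 0.676 and 3.07 for novel_mir80. Of the 10604, 4541 reached the count minimum in the 6 root libraries alone, against 35 of the 40 members. An entry with no listed reads in a PEG root library cannot show this pattern, which lowers the 1.25%. The difference between the organs was not tested. The rule chose members for high control leaf and low control root levels, which favours this pattern, and neither organ's change passed in edgeR. With TMM scaling the root log2 changes were 0.15 for novel_mir33, 0.05 for novel_mir60 and 1.13 for novel_mir80. The sign of the root change turned in 3 of 16 other settings for novel_mir60, to as low as -0.13, and in 2 of 16 for novel_mir33, to as low as -0.021, so the opposite directions did not hold throughout for these members.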

How the results depend on the processing

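In leaves 0 members were called in every setting, and in roots 0 except 1 with DESeq2. For roots versus leaves under PEG, 15 were called (11 lower, 4 higher), against 16.5% of all features. With a library left out 13 to 15 were called (lower 10 to 11, higher 3 to 4), against 15.8% to 18.3%. The count was 9 with library totals of named features alone (0 higher; 15.1% of all features), 26 with DESeq2 (22 lower; 21.5%) and 23 with microRNAs alone (21 lower, 2 higher), where 59.8% of the 219 features tested were called, a share no smaller than the members' own. With column totals 12 were lower and 0 higher (15.7% of all features called), and with zeros set to 9, 14 and 0 (19%). The higher calls thus depend on these settings. In the same comparison novel_mir50 turned negative, to -0.0231 with library totals, -0.14 with DESeq2 size factors and with DESeq2, -0.32 with column totals, -0.15 with microRNAs alone, -0.0352 with zeros set to 9 and, with a library left out, -0.21 (without PEG root replicate 1) to 0.30; the cause was not tested. The rule gave 33 members with TMM scaling, losing all 4 called higher under PEG, 39 with the other denominators and 38 to 41 with a control library left out. The summed PEG to control log2 ratio was 0.09 in leaves (-0.07 to 0.24 with a library left out) and 0.995 in roots (0.65 to 1.25). With the replicate number as a block, 0, 0 and 11 members were called in leaves, in roots and between organs, against 0%, 1.85% and 6.45% of all features. Same-numbered libraries did not deviate together in any comparison (correlations -0.315 to 0.056), so the numbers were not taken to pair libraries. All settings were planned but those leaving out libraries from the sum or from the root counts without overlap, which were chosen after seeing the data.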
